A study of Mus musculus with 8 samples.

Results

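The 10 genes described here encode killer lectin-like receptors and CD160, surface receptors best known from natural killer (NK) cells. They are Klrd1, Klrc1, Klrc2, Klre1, Klrk1, Klrb1b, Klrb1c, Klrb1f, Klrg1 and Cd160, taken by gene symbol from a table of 23997 genes, and all 10 were found there. Their level was compared by RNA sequencing between regulatory T (Treg) cells that differ in the number of floxed copies of the gene for the zinc finger factor Bcl11b. Bcl11b-deficient cells carried 2 floxed Bcl11b copies (Bcl11b f/f Foxp3-YFP-Cre/+) and Bcl11b-sufficient cells 1 floxed copy (Bcl11b f/+ Foxp3-YFP-Cre/+). All animals were of strain C57BL/6, without a stated age. In both groups the Cre recombinase was fused to YFP and driven from 1 Foxp3 allele, so deletion was directed to cells that express Foxp3, and CD4+YFP+ cells were sorted from spleen and draining lymph nodes. Sufficient cells therefore also carried Cre and had 1 Bcl11b copy open to deletion. Foxp3 lies on the X chromosome, so animals with 1 Cre allele also hold Treg cells without Cre, and the sort kept YFP+ cells.

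Killer lectin-like receptors are C-type lectin-like proteins whose genes cluster in the NK gene complex of mouse chromosome 6. Some inhibit and others activate the cell when they meet their ligands, which include MHC class I-like molecules and, for the Klrb1 family, lectins of the Clec2 family encoded in the same cluster. CD160 is an unrelated immunoglobulin-like receptor that binds the TNF receptor family member HVEM, and is found on NK cells and subsets of T cells. Bcl11b is known as a factor that holds T cells in their lineage, and mouse T cells that lose it can gain features of NK cells.

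Each group held 4 columns of the table, but 3 pairs of columns differed by little more than read sampling and were averaged. Replicates 1 and 3 formed such a pair in each group, and replicates 2 and 4 in the deficient group. Their spread was 1.24 to 1.34 times that of read sampling, against 2.12 to 2.93 times for the 9 other pairs within a group. This left 2 deficient and 3 sufficient libraries, and since the labels do not tie these to separate animals, the p-values here speak of the spread among libraries, which may be technical. Estimated depth ran from 2970000 to 13120000 fragments per column, and 37.4% to 47.0% of genes were listed at 0 in a column. The table gives FPKM, fragments scaled to transcript length and library depth, so levels of different genes can be set side by side. Bcl11b itself measured 24.2, 19.3, 24.6 and 18.7 FPKM across deficient columns 1 to 4 and 42.4, 46.5, 42.4 and 39.1 FPKM across sufficient columns 1 to 4, a log2 fold change of -0.95 (SE 0.14, limma adjusted p = 0.0238). Foxp3, which defines Treg cells, was present in every library, at 153 FPKM in both deficient libraries and 165 to 198 FPKM in sufficient ones. Of 8 Treg and T cell markers limma called none higher, also at an unadjusted p under 0.05, and 1 lower, or 3 at an unadjusted p under 0.05. Of all genes tested, 1.93% were called higher and 0.697% lower, at an adjusted p under 0.05. The share of all genes at an unadjusted p under 0.05 was not computed. Counts at that threshold, here and below, therefore have no background beside them. Without overlap between groups, 5 of the 8 were lower and 1 higher, against 17.9% and 18.9% of all genes tested. Ctla4, an inhibitory receptor, averaged 111 against 375 FPKM (limma adjusted p = 0.0174), a call lost with no filter and without sufficient replicate 2 or either deficient library. The others lower at an unadjusted p under 0.05 were Il2ra, the high-affinity interleukin-2 receptor chain (112 against 179 FPKM, log2 fold change -0.66, limma adjusted p = 0.0783), and Ikzf2, the transcription factor Helios (43.7 against 65.6 FPKM, log2 fold change -0.55, limma adjusted p = 0.178). Cd4 had the lowest p among increases (292 against 260 FPKM, limma adjusted p = 0.476).

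The promoters of several of these genes are shown first, since the results below refer to genes that lie close to each other and differ in level. RefSeq windows (GRCm38.p6) reach from 250 bases before to 50 bases after an annotated start, and 8 of the 10 genes had 1 or more. Short motifs were searched on both strands: TGTGGT, bound by Runx factors, TCACAC, bound by T-box factors, and TGACCA, bound by human BCL11A, the paralogue of BCL11B. The sequences of Cd160 are shown because it had the highest level in deficient cells. No window of Klrd1 was used here, and that of Klrk1, which lies next to it, was added after the values were seen. Capitals mark TGTGGT and TCACAC or their reverse complements. All run 5′ to 3′ on the gene's strand.
Cd160 upstream start, chr3:96829302-96829601, minus strand: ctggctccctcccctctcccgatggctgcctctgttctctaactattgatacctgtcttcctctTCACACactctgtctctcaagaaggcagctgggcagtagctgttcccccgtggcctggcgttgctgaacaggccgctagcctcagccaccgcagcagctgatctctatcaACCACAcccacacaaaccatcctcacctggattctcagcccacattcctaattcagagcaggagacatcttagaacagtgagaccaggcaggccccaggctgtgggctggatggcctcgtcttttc
Cd160 downstream start, chr3:96814472-96814771, minus strand: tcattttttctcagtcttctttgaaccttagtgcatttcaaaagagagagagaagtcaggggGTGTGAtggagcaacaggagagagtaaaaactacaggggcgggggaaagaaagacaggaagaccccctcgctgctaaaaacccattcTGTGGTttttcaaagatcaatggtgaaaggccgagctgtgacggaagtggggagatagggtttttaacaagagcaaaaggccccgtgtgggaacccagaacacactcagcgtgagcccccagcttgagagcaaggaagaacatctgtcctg
Klrk1, chr6:129623815-129624114, minus strand: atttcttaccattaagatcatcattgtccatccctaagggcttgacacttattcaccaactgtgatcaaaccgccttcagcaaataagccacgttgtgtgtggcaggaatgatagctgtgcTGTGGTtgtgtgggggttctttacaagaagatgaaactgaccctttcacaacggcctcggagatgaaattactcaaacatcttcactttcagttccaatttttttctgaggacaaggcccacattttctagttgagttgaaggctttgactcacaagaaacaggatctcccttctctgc

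Both Cd160 windows held 1 TGTGGT match, 76 and 101 bases before the start, and 1 TCACAC match, 186 and 188 bases before it. Klrk1 held 1 TGTGGT match 129 bases before its start. TGTGGT occurred in the windows of 6 of the 8 genes, namely Cd160, Klrk1, Klrc1, Klrc2, Klre1 and Klrb1c, against 18.9% of 27025 genes with a RefSeq window. TCACAC occurred in 2 of the 8 genes (Cd160 and Klre1), against 16.4% of all genes. TGACCA occurred in Klrb1c alone of the 8, against 15.4% of all genes, and there it overlapped the TGTGGT match. Klrc1, Klrc2 and Klre1 are related genes, so their windows are not independent of each other, and a match is a description of the letters only.

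The next windows compare the Klrb1 genes, 2 of which rose in deficient cells (Klrb1b and Klrb1f) while Klrb1c did not pass the test. Capitals mark the longest run of bases that Klrb1b and Klrb1f share and, in Klrb1c, the longest run that it shares with Klrb1b. This comparison was chosen after the values were seen.
Klrb1b, chr6:128826266-128826565, minus strand: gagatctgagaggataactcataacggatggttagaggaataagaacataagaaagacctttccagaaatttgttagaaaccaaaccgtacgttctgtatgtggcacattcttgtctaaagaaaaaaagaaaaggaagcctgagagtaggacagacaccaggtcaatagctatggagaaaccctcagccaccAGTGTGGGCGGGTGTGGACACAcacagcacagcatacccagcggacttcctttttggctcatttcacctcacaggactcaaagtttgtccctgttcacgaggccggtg
Klrb1f, chr6:129045651-129045950, plus strand: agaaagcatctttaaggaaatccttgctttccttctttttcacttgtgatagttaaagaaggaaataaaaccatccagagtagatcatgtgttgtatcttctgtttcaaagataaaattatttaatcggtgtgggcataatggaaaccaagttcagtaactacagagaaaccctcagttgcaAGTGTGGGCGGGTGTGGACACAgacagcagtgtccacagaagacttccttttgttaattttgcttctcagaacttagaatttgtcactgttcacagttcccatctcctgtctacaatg
Klrb1c, chr6:128788592-128788891, minus strand: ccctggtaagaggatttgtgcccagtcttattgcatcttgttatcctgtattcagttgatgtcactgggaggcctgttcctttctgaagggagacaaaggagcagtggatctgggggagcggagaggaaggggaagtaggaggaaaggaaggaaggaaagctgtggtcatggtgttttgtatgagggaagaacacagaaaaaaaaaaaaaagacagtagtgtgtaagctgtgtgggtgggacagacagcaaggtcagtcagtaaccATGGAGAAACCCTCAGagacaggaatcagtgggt

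The run shared by Klrb1b and Klrb1f was 22 bases long, began 58 and 68 bases before their starts, and was found in no other gene among 32851 RefSeq windows. The longest run shared by Klrb1b and Klrb1c had 16 bases, began 79 bases before the start of Klrb1b and 16 bases after that of Klrb1c, and was also found in Klrb1a. The last 13 bases of that run also occurred in Klrb1f, beginning 86 bases before its start. Neither Klrb1b nor Klrb1f held any of the 3 motifs. What these runs do was not measured here.

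In Bcl11b-deficient Treg cells 5 of the 10 receptor genes rose and none fell. Klrd1, Klrk1, Klrb1b, Klrb1f and Cd160 passed limma at a Benjamini-Hochberg adjusted p under 0.05 over all genes tested. Deficient means were 41.3 times the sufficient mean for Klrd1, 18.7 times for Klrb1b, 12.6 times for Klrk1, 4.41 times for Klrb1f and 4.32 times for Cd160. The sufficient means of Klrd1, Klrb1b and Klrk1 were close to 0, so these ratios depended on single libraries and give no firm order. The ratio of Klrd1 was 90.6 with sufficient replicate 4 left out and 30.5 with sufficient replicates 1 and 3 left out, where that of Klrb1b was 36.7. On the log2(FPKM + 1) scale Cd160 (1.96) lay above Klrk1 (1.78) and Klrb1f (1.53). Klrb1c, Klrc1, Klrc2 and Klre1 were measured at low levels and did not pass, and Klrg1 varied more between sufficient libraries than between the groups. Among 10614 genes averaging 1 FPKM or more, 1.93% were called higher and 0.697% lower, and 7 of the 10 receptor genes reached that mean. Klrd1, Klrk1 and Klrb1b reached it only through the deficient libraries and so had to differ between the groups to be tested, while Klrc1, Klrc2 and Klre1 did not reach it. None of the 7 had an unadjusted p under 0.05 in the direction of a decrease. Without the filter 17114 genes were fitted, of which 0.532% were called higher and 0.0467% lower, and 4 of the 10 receptor genes were called, Klrb1f no longer among them. Macrophage markers were higher in the same libraries, with 12 of them summing to 284 to 624 FPKM in deficient against 16.5 to 68.6 FPKM in sufficient libraries, and their part in the receptor levels was not tested. In RNA of whole sorted samples, more cells of a type and more RNA per cell cannot be told apart. With library totals made equal, 91.9% of all calls were higher, against 73.5% here, the median of all genes moved to 0.18 from -0.01 on the log2 scale, and the same 5 genes were called.

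**Figure D1:**
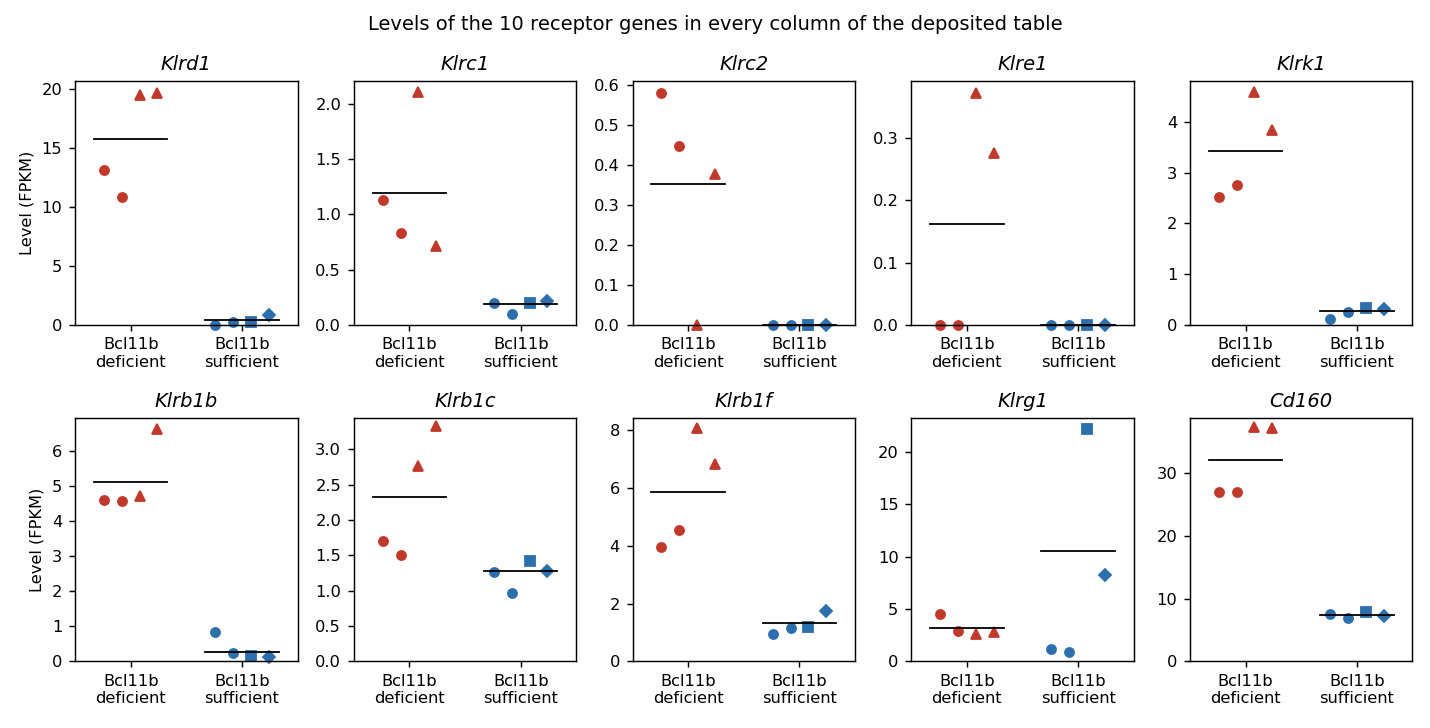
Levels (FPKM, linear axes from 0) of the 10 receptor genes in the 4 deficient and 4 sufficient columns, with replicates 1, 3, 2 and 4 from left to right in each group. Points of 1 shape and colour belong to 1 library and black lines are means over libraries. Deficient columns of Klrd1 sit between 10.9 and 19.7 FPKM, all above the sufficient columns at 0 to 0.800 FPKM, while Klrg1 is highest in sufficient replicate 2.

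Klrd1 encodes CD94, the common chain that pairs with NKG2 proteins to form receptors for the MHC class I-like molecule Qa-1. The gene (ENSMUSG00000030165.16) spans chromosome 6, 129591782 to 129598775, on the plus strand of GRCm38. It measured 13.1, 19.5, 10.9 and 19.7 FPKM across deficient columns 1 to 4, against 0, 0.235, 0.228 and 0.800 FPKM across sufficient columns 1 to 4. The groups did not overlap, and in sufficient replicates 1 to 3 the gene was near its limit of detection, with an estimated 0 to 2.6 fragments per column. The means were 15.8 ± 5.38 FPKM (SD, n = 2) in deficient and 0.383 ± 0.366 FPKM (SD, n = 3) in sufficient libraries. Its log2 fold change came to 3.60 (SE 0.28, limma adjusted p = 0.00782), on the log2(FPKM + 1) scale that understates changes of low genes. Without deficient replicates 2 and 4, which leaves 1 deficient library, it was 3.27 and no longer called (limma adjusted p = 0.0582).

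The partner chains of CD94 stayed at much lower levels. Klrc1, which encodes the inhibitory partner NKG2A, measured 1.13, 2.11, 0.835 and 0.712 FPKM across deficient columns 1 to 4, against 0.201, 0.195, 0.0949 and 0.218 FPKM across sufficient columns 1 to 4. All deficient columns were above all sufficient ones, but an estimated 7.1 to 20.1 fragments per deficient column and 1.2 to 5.7 per sufficient column stand behind these values. Its mean was under 1 FPKM, and in the fit without that filter its difference on the log2 scale was 0.88 (SE 0.10, limma adjusted p = 0.0510). With the filter at 0.3 FPKM the adjusted p was 0.0465, so its call rests on the filter. Klrc1 reached a mean of 0.3 FPKM only through the deficient libraries and so had to differ between the groups to be tested there. Klrc2, which encodes the activating partner NKG2C, measured 0.580, 0, 0.447 and 0.378 FPKM across deficient columns 1 to 4 and was listed at 0 in all 4 sufficient columns (log2 fold change without the filter 0.42, SE 0.10, limma adjusted p = 0.168). Klre1 encodes a related chain that in mouse pairs with the products of Klri1 and Klri2. It was listed at 0 in deficient replicates 1 and 3 and in all sufficient columns, and measured 0.373 and 0.276 FPKM in deficient replicates 2 and 4.

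Set against its partners, Klrd1 was 8.03 and 12.3 times the sum of Klrc1 and Klrc2 in the deficient libraries. In sufficient libraries this ratio was 0.771, 1.21 and 3.67, where all 3 genes were close to 0. Klrc1 and Klrc2 share transcript sequence: 38.1% of the 50-base windows of the longest Klrc1 transcript also occur in Klrc2, so the split of reads between them is uncertain. None of the windows of Klrd1, Klrk1, Klrb1f, Klrg1 or Cd160 occurred in transcripts of another gene.

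Klrk1 encodes NKG2D, an activating receptor for stress-induced MHC class I-like ligands, and lies next to Klrd1 on chromosome 6 (129610323 to 129623864, minus strand). It measured 2.51, 4.58, 2.75 and 3.85 FPKM across deficient columns 1 to 4, against 0.115, 0.334, 0.245 and 0.304 FPKM across sufficient columns 1 to 4. Every deficient column was above every sufficient one, with a log2 fold change of 1.78 (SE 0.23, limma adjusted p = 0.0180). The adjusted p was 0.0520 without sufficient replicate 2 and 0.0774 without deficient replicates 1 and 3. With replicates 2 and 4 of that group left out, the gene fell under the filter.

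The Klrb1 genes encode the NKR-P1 receptors, and 2 of the 3 described here passed the test. Klrb1b, an inhibitory receptor for the Clec2d product (chromosome 6, 128813706 to 128826331, minus strand), measured 4.58, 4.71, 4.58 and 6.62 FPKM across deficient columns 1 to 4, against 0.845, 0.163, 0.239 and 0.116 FPKM across sufficient columns 1 to 4. All deficient columns were above all sufficient ones, with a log2 fold change of 2.27 (SE 0.23, limma adjusted p = 0.00959). The call ended without either deficient library (adjusted p = 0.0774 and 0.0853). Klrb1f, an activating receptor for the Clec2i product (chromosome 6, 129045901 to 129057464, plus strand), averaged 5.85 ± 2.26 FPKM (SD, n = 2) in deficient libraries, against 1.33 ± 0.366 FPKM (SD, n = 3) in sufficient libraries. Its log2 fold change of 1.53 (SE 0.25, limma adjusted p = 0.0319) rested on all 5 libraries, since leaving out any 1 of them gave an adjusted p between 0.0559 and 0.175, and the fit without the filter gave 0.102.

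Klrb1c encodes NKR-P1C, the activating receptor that carries the NK1.1 antigen of C57BL/6 mice (chromosome 6, 128778485 to 128789215, minus strand). It measured 1.71, 2.77, 1.51 and 3.33 FPKM across deficient columns 1 to 4, against 1.27, 1.43, 0.961 and 1.28 FPKM across sufficient columns 1 to 4. The groups did not overlap, but the log2 fold change of 0.52 (SE 0.24, 95% interval -0.04 to 1.07) did not pass (limma adjusted p = 0.315). Of the 50-base windows of the longest transcript, 29.0% in Klrb1b and 18.1% in Klrb1c occur in other genes. Most of these belong to Gm44511, a gene that overlaps both on the same strand and has no row in the table. Reads of these genes could therefore be split in ways the values do not show. The other Klrb1 genes were low: Klrb1a measured 0.113 and 0.764 FPKM in the deficient libraries, against 0 to 0.0365 FPKM in sufficient libraries. The level of Klrb1 was 0 and 0.531 FPKM in deficient libraries, while every sufficient library listed it at 0.

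**Figure D2:**
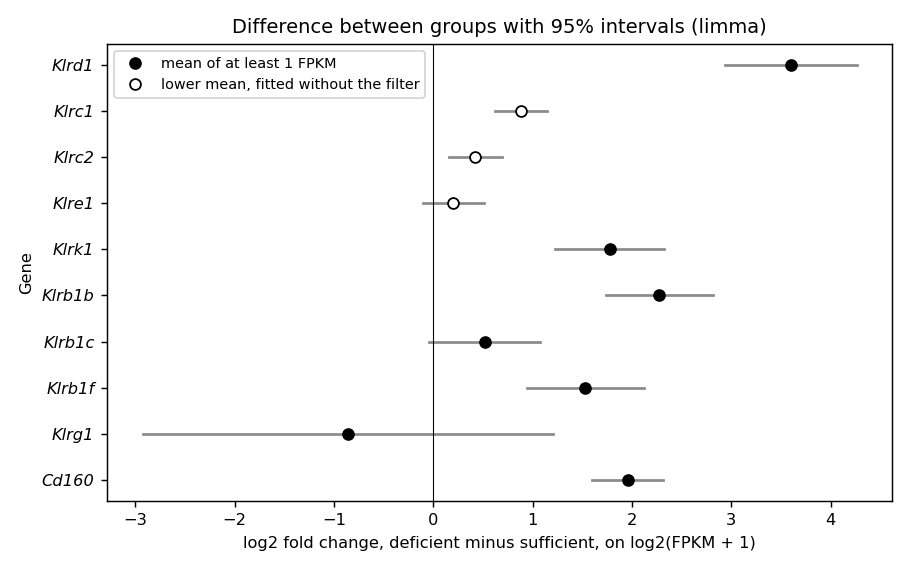
Difference in log2(FPKM + 1), deficient minus sufficient, for the 10 genes, with bars for the 95% interval from limma over 2 deficient and 3 sufficient libraries. Filled points had a mean of at least 1 FPKM and open points were fitted without that filter. Klrd1 lies at 3.60, the intervals of Klrb1c and Klre1 include 0, and that of Klrg1 runs from -2.92 to 1.2.

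Cd160 (ENSMUSG00000038304.14, chromosome 3, 96798763 to 96829351, minus strand) was the most abundant of the 10 genes in deficient cells and, of the 5 called genes, also in sufficient cells. It measured 26.9, 37.3, 27.0 and 37.2 FPKM across deficient columns 1 to 4, against 7.54, 7.85, 6.91 and 7.23 FPKM across sufficient columns 1 to 4. The sufficient columns lay close together, and every deficient column was more than 3 times as high. Its log2 fold change came to 1.96 (SE 0.15, limma adjusted p = 0.00782), and it was called in all 19 alternative settings (adjusted p at most 0.0482). Pdzk1 overlaps Cd160 on the opposite strand. Its level was 1.80 to 3.52 FPKM in deficient against 1.18 to 2.12 FPKM in sufficient columns, well under that of Cd160. The kit marks strand, while the sources used here do not say whether the counting used it.

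Klrg1, an inhibitory receptor for cadherins that also marks activated Treg cells, stood apart from the other members. The gene lies 6.50 Mb from the cluster of the other chromosome 6 genes (122270596 to 122282882, minus strand). It measured 4.56, 2.59, 2.87 and 2.78 FPKM across deficient columns 1 to 4, against 1.15, 22.2, 0.878 and 8.27 FPKM across sufficient columns 1 to 4. Sufficient replicates 2 and 4 were above all deficient columns and sufficient replicates 1 and 3 were below them. Its log2 fold change came to -0.86 (SE 0.88, 95% interval -2.92 to 1.2, limma adjusted p = 0.653). It was -0.05 with sufficient replicate 2 left out and -1.81 with sufficient replicates 1 and 3 left out (limma adjusted p = 0.976 and 0.0955), so its size depended on the library left out.

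The order of levels changed between the groups, as a description over few libraries. In deficient cells Cd160 (27.0 and 37.3 FPKM) was above Klrd1 (12 and 19.6 FPKM), which was above Klrb1f and Klrb1b. Klrb1f and Klrb1b overlapped in range, as did Klrk1, Klrg1 and Klrb1c below them, and Klrc1, Klrc2 and Klre1 came last. Klrd1, Klrc1, Klrc2, Klrk1, Klrb1b, Klrb1c, Klrb1f and Cd160, 8 of the 10, were higher in both deficient libraries than in every sufficient one and none was lower, where this holds for 18.9% of the tested genes in the higher and 17.9% in the lower direction, and for 18.2% of genes in the higher direction without the filter. In sufficient cells Klrg1 had the highest mean, at 10.5 ± 10.8 FPKM (SD, n = 3), but its range overlapped that of Cd160. Klrb1f and Klrb1c followed near 1.3 FPKM and overlapped, and the other 6 genes were under 1 FPKM in every library. Cd160 made up 47.1% and 45.5% of the summed level of the 10 genes in the deficient libraries and 63.4%, 23.4% and 36.2% in the sufficient ones, with Klrg1 highest in the libraries of the last 2 values. The share of Klrd1 was 21% and 24%, against 1.0%, 0.699% and 4.01%.

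The deficient libraries also differed from each other. In 8 of the 10 genes the level was lower in replicates 1 and 3 than in replicates 2 and 4, at 0.612 times for Klrd1, 0.624 times for Klrk1, 0.571 times for Klrb1f, 0.809 times for Klrb1b and 0.723 times for Cd160. Klrc2 and Klrg1 were the exceptions. Of 12 macrophage markers, 1 (Itgam) was lower in replicates 1 and 3, and the other 11 were higher there.

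Other killer lectin-like receptors were scarcely measured. The table holds 28 more genes whose symbol starts with Klr, of which 5 were at 0 in every library and none reached a mean of 1 FPKM, so none was in the main test. In the fit without the filter 1 was called higher and none lower, where 0.532% and 0.0467% of genes were. It was Klra17, a gene of the Ly49 family, at 0.647 and 0.499 FPKM in the deficient libraries and listed at 0 in every sufficient library (difference in log2(FPKM + 1) 0.65, SE 0.05, limma adjusted p = 0.0390). Their summed level was 2.42 and 4.23 FPKM in the deficient, against 0.365 to 0.762 FPKM in the sufficient libraries. The highest was Klra2, a receptor of the Ly49 family, at 1.21 and 0.704 FPKM in deficient libraries and 0.0251 to 0.244 FPKM in sufficient libraries. Klra8 and Klra4, which encode the Ly49 receptors Ly49H and Ly49D, reached at most 0.205 FPKM in a deficient library and 0.169 FPKM in a sufficient library. Klri1 and Klri2, partners of Klre1, reached at most 0.118 FPKM.

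The receptors on chromosome 6 lie among other genes. From Klrb1c to Klrc1 the interval spans 900 kb (128778485 to 129678973) and holds 8 of the 10 genes and 24 other genes of the table, of which 9 were tested. Among these 9, 1 was called higher by limma (Clec12a) and none lower, where 1.93% and 0.697% of all genes tested were. At an unadjusted p under 0.05, 3 were higher (Clec12a, BC035044 and Clec7a) and none lower. The median log2 fold change of the 9 was 0.01, against -0.01 over all genes tested. Clec12a, BC035044 and Clec7a reached a mean of 1 FPKM only through the deficient libraries and so had to differ between the groups to be tested. Clec12a, a lectin receptor of myeloid cells, averaged 3.43 FPKM in deficient against 0.562 FPKM in sufficient libraries (log2 fold change 1.49, limma adjusted p = 0.0356), a call lost when any 1 of the 5 libraries was left out, with no filter and with a pseudocount of 0.1. BC035044, a gene known by its clone name, averaged 2.11 and 0.750 FPKM (log2 fold change 0.81, limma adjusted p = 0.132). Clec7a, the beta-glucan receptor Dectin-1, averaged 2.11 and 0.277 FPKM and was not called (log2 fold change 1.26, limma adjusted p = 0.154). Cd69, an early activation antigen, averaged 109 FPKM in deficient against 156 FPKM in sufficient libraries (log2 fold change -0.42, limma adjusted p = 0.723). Gabarapl1, an autophagy gene, had the lowest p among decreases and averaged 10.9 and 12.8 FPKM (log2 fold change -0.20, limma adjusted p = 0.611).

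**Figure D3:**
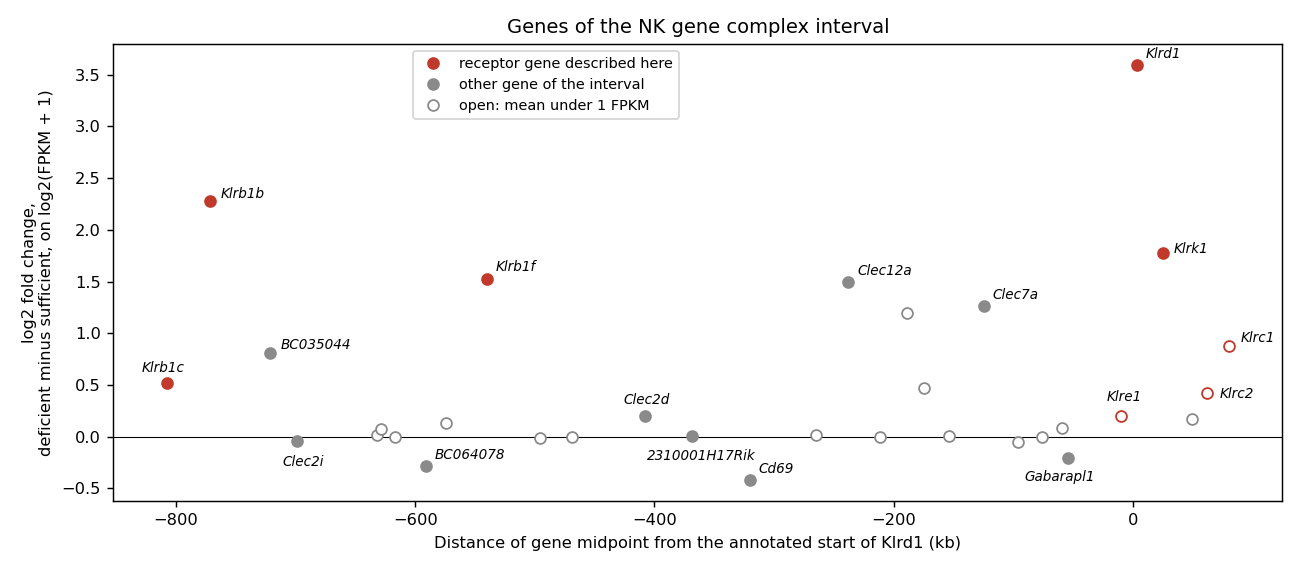
Difference in log2(FPKM + 1), deficient minus sufficient, for every gene of the table in the NK gene complex interval, by the distance of its midpoint from the annotated start of Klrd1 in kb. Red points are the receptors described here, grey points other genes, and open points had a mean under 1 FPKM. Klrb1b lies at 2.27, Klrb1f at 1.53, Klrd1 at 3.60 and Klrk1 at 1.78. The other genes run from Cd69 at -0.42 to Clec12a at 1.49. Clec7a at 1.26 and Clec1b at 1.20, an open point, are near the upper end, and Clec2i at -0.04 and Clec2d at 0.20 are near 0.

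Ligands of these receptors were measured in the same cells. Of 21 ligand genes measured, 7 passed the filter and limma called none higher or lower, also at an unadjusted p under 0.05, with a median log2 fold change of -0.04. The 14 genes under the filter were not tested. They included every cadherin gene listed for Klrg1 and, of the ligands of NKG2D, all those measured but Ulbp1. Clec2d, which encodes the ligand of the Klrb1b product, averaged 233 and 218 FPKM (log2 fold change 0.20, limma adjusted p = 0.822). H2-T23, which encodes Qa-1, the ligand of the CD94 receptors, averaged 326 and 377 FPKM (log2 fold change -0.20, limma adjusted p = 0.635). H2-K1, a classical class I gene, averaged 2214 FPKM in deficient against 2798 FPKM in sufficient libraries and had the lowest p of the ligands (log2 fold change -0.33, limma adjusted p = 0.345). Tnfrsf14, which encodes the CD160 ligand HVEM, had the lowest p among increases, at 24.4 and 21.9 FPKM (log2 fold change 0.17, limma adjusted p = 0.655). Btla, another receptor for HVEM, averaged 38.1 FPKM in deficient against 37.9 FPKM in sufficient libraries, and of the 4 partner genes of Cd160 and Btla none was called or had an unadjusted p under 0.05 (median 0.09). Tnfsf14, which encodes the HVEM ligand LIGHT, had a log2 fold change of 0.41 and Lta, which encodes lymphotoxin alpha, one of -0.13 (limma adjusted p = 0.482 and 0.753).

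Among 13 adaptors and signalling proteins of the receptors, 2 were called higher by limma and none lower, where 1.93% and 0.697% of all genes tested were. Their median was 0.01. Without overlap between groups 4 were higher and 4 lower, against 18.9% and 17.9% of all genes tested. At an unadjusted p under 0.05, 3 were higher (Syk beside the called genes) and 2 lower (Hcst and Lck). Fcer1g, a signalling chain that NKR-P1C uses, averaged 265 FPKM in deficient against 4.77 FPKM in sufficient libraries (log2 fold change 5.77, limma adjusted p = 0.00885). Tyrobp, which encodes the adaptor DAP12 of activating receptors such as NKG2C and NKG2D, averaged 51.8 and 5.73 FPKM (log2 fold change 3.19, limma adjusted p = 0.0423). The call of Fcer1g was lost without either deficient library, with no filter and with robust empirical Bayes, and that of Tyrobp under these settings, with a pseudocount of 0.1 and without sufficient replicate 4 as well. Syk, a kinase downstream of both adaptors, averaged 3.45 and 1.20 FPKM without overlap and was not called (log2 fold change 1.02, limma adjusted p = 0.0550). Hcst, which encodes DAP10, the other adaptor of NKG2D, had the lowest p among decreases, at 112 FPKM in deficient against 171 FPKM in sufficient libraries (log2 fold change -0.60, limma adjusted p = 0.0745). Ptpn6 and Inpp5d, phosphatases that inhibitory receptors recruit, had log2 fold changes of 0.06 and 0.09. Fcer1g and Tyrobp are also expressed by macrophages, whose markers were higher in the same libraries, and the part of those markers in these values was not tested.

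Other NK cell receptor genes gave 2 limma calls, both higher, among 8 tested, where 1.93% of all genes tested were called higher and 0.697% lower. The median of the 8 was 0.30. At an unadjusted p under 0.05, 3 were higher (Il18r1 beside the called genes) and 1 lower (Tigit). The calls higher were 3 with no filter or with the filter at 0.3 FPKM, and 1 with a pseudocount of 0.1. Of the genes under 1 FPKM, Cd244 measured 1.54 and 2.59 FPKM in deficient against 0.0228 to 0.0656 FPKM in sufficient libraries. Cd244 reached a mean of 0.3 FPKM only through the deficient libraries and so had to differ between the groups to be tested at that filter. Ncr1, Slamf7 and S1pr5, also under 1 FPKM, overlapped between the groups. Itga2, the collagen receptor chain CD49b, averaged 3.61 and 0.541 FPKM (log2 fold change 1.58, limma adjusted p = 0.0181). Il12rb2, a chain of the interleukin-12 receptor, averaged 2.82 and 0.529 FPKM (log2 fold change 1.32, limma adjusted p = 0.0259). Itga2 and Il12rb2 reached a mean of 1 FPKM only through the deficient libraries and so had to differ between the groups to be tested. Both calls were lost without sufficient replicate 2 or either deficient library, and that of Il12rb2 also without sufficient replicate 4 and with a pseudocount of 0.1. The decrease with the lowest p was that of Tigit, an inhibitory receptor of Treg and NK cells, at 24.8 FPKM in deficient against 61.2 FPKM in sufficient libraries (log2 fold change -1.16, limma adjusted p = 0.239). Among 10 tested regulators of the NK and T lineages 1 was called higher by limma and none lower, where 1.93% and 0.697% of all genes tested were. The median of the 10 was 0.01. At an unadjusted p under 0.05, 2 were higher (Tcf7 beside the called gene) and 1 lower (Nfil3). Runx3, a Runx factor of cytotoxic lymphocytes, averaged 31.3 and 18.7 FPKM (log2 fold change 0.72, limma adjusted p = 0.0341), a call lost when any 1 of the 5 libraries was left out and with no filter. Nfil3, a factor needed for NK cell development, averaged 11.7 FPKM in deficient against 37.8 FPKM in sufficient libraries (log2 fold change -1.54, limma adjusted p = 0.0791). Tbx21 and Eomes, the T-box factors of NK cells, had log2 fold changes of 0.42 and 0.04 (limma adjusted p = 0.599 and 0.936).

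Markers of cells other than Treg cells were read beside these results. Ncr1, the defining receptor NKp46 of NK cells, measured 0.156 and 0.539 FPKM in the deficient, against 0, 0.385 and 0 FPKM in the sufficient libraries. The 10 NK cell markers outside the receptors described here summed to 11.9 and 16.1 FPKM in deficient against 8.0 to 10.1 FPKM in sufficient libraries. Of 5 tested 1 was called higher (Itga2) by limma and none lower, where 1.93% and 0.697% of all genes tested were. Itga2 reached a mean of 1 FPKM only through the deficient libraries, and Khdc1a only through the sufficient ones. At an unadjusted p under 0.05 the list had 2 markers higher and 1 lower. Gzmb, a granule protease, was the other one higher, at 5.55 and 3.01 FPKM without overlap (log2 fold change 0.68, limma adjusted p = 0.256), and Khdc1a was the one lower, at 0.840 and 1.95 FPKM (log2 fold change -0.68, limma adjusted p = 0.249). Cd8a and Cd8b1, of CD8 T cells, summed to 10.6 and 11.2 FPKM in deficient against 11.6 to 15.1 FPKM in sufficient libraries. Zbtb16 and Sox13, the genes in the table from the gamma-delta T and NKT cell list, stayed at or under 0.154 FPKM.

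Macrophage markers moved with the receptors between the groups. All 12 markers were higher in both deficient libraries than in every sufficient library, where 18.9% of all genes tested were, and none was at 0 throughout. None was called lower by limma, also at an unadjusted p under 0.05. Of all genes tested, here and for the dendritic list below, 1.93% were called higher and 0.697% lower. Itgam and Cd14 reached a mean of 1 FPKM only through the deficient libraries and so had to differ between the groups to be tested. Of the 12 markers 6 were called higher by limma (Fcgr3, Emr1, Itgam, Lyz2, Spic and Cd68). This count was 0 without either deficient library, 3 without sufficient replicate 2 or 4, 9 without sufficient replicates 1 and 3, 1 with no filter, 3 with a pseudocount of 0.1 and 10 with equal totals. Their summed level was 624 and 284 FPKM in the deficient, against 16.5 to 68.6 FPKM in the sufficient libraries. Dendritic cell markers summed to 40.3 and 45.6 FPKM in deficient against 14.6 to 26.5 FPKM in sufficient libraries. Ccr9 made up most of each sum, at 26.8 and 34.8 FPKM in deficient against 26.0, 16.7 and 13.2 FPKM in sufficient libraries. Of 4 tested, 2 were called higher by limma (Siglech and Batf3). Both calls were lost with a pseudocount of 0.1, with no filter and with any 1 sufficient library left out. Neither held with 1 deficient library left out, and that of Batf3 was also lost with quantile normalization. Siglech, Batf3 and Zbtb46 reached a mean of 1 FPKM only through the deficient libraries and so had to differ between the groups to be tested. B cell markers summed to 9.08 and 12.2 FPKM, against 10.3 to 20.1 FPKM, and neutrophil markers to 6.31 and 30.5 FPKM, against 2.16 to 34.4 FPKM, with none called by limma in either list and 1 lower at an unadjusted p under 0.05 (Cd79b).

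**Figure D4:**
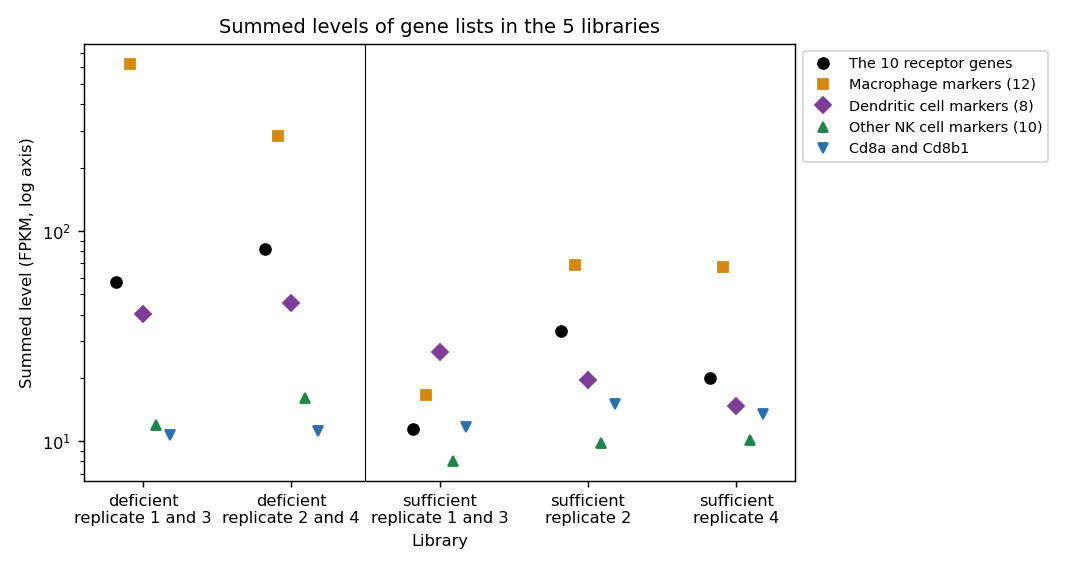
Summed FPKM (log axis) of the 10 receptor genes and of marker lists in the 2 deficient and 3 sufficient libraries. The receptors sum to 57.2 and 81.9 FPKM in deficient against 11.4 to 33.6 FPKM in sufficient libraries, where Klrg1 makes up much of the highest value. Between the deficient libraries the receptors are higher in replicates 2 and 4 and the macrophage markers in replicates 1 and 3. Ccr9 makes up most of each dendritic cell sum.

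By the distance between centred profiles of log2(FPKM + 1) over the 5 libraries, the tested genes most like Klrd1 were Fcgr3 (distance 0.682), Gzma (1.19) and Mpeg1 (1.28). Fcgr3 encodes a receptor for antibodies on NK cells and macrophages and measured 22.8 and 22.0 FPKM in deficient libraries, against 0.459, 1.26 and 2.34 FPKM in sufficient libraries. Gzma encodes a granule protease of cytotoxic lymphocytes and is not in the NK cell marker list. It measured 12.6 and 31.5 FPKM in deficient libraries, against 0.22, 2.54 and 1.24 FPKM in sufficient libraries. Mpeg1 encodes a pore-forming protein of macrophages. Those most like Cd160 were March8 (0.192), a ubiquitin ligase, Arap3 (0.194), a regulator of small GTPases, and Lgals3 (0.290), a galectin. Lgals3 measured 14.1 and 19.8 FPKM in deficient libraries, against 4.39, 4.83 and 4.28 FPKM in sufficient libraries. All 6 were themselves called higher, but genes picked for likeness to Klrd1 and Cd160 share their difference between the groups, so these calls are no separate result. Fcgr3 is in the macrophage list, and Mpeg1, also of macrophages, is not in that list.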

How the data were processed

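The authors deposited a table of FPKM values for 23997 genes. Per the submitters' processing notes, the tools included STAR 2.5.1 and Cuffnorm 2.2.1 and Cuffdiff 2.2.1 with mm10, beside Trim Galore 0.4.2, cutadapt 1.12 and FastQC, whose settings the sources used here do not give. Of 16 value columns 8 matched samples by title and the other 8 were not used. Depth was estimated from steps between low values, set to fragments with 147 genes of 1 transcript, so fragment numbers are approximate.

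Column pairs of 1 group with a spread under 1.5 times read sampling, over genes at 150 to 500 fragments, were averaged. Genes averaging at least 1 FPKM over 5 libraries were fitted as log2(FPKM + 1), a scale that understates changes of low genes, by limma (version 3.58.1, R 4.3.3; mean-variance trend, two-sided, Benjamini-Hochberg over all genes tested, threshold 0.05). The script was checked on simulated data. An exact permutation test of 2 against 3 libraries cannot go below p = 0.1 and was not used. Positions are from GENCODE M21 (GRCm38), and shared windows had 50 bases. The genes and lists were chosen with earlier results of these data known. Named were the 10 genes, Bcl11b, the called genes of each related list and of the neighbours and its lowest adjusted p in each direction, the 3 genes most like Klrd1 and Cd160, and marker genes whose level stands beside a result. H2-T23, Clec2d, Cd69, Clec7a, Clec1b, Cd244, Slamf7, S1pr5, Ptpn6, Inpp5d, Btla, Tbx21, Eomes, the low Klr genes, Pdzk1 and the genes named for an unadjusted p were chosen after their values were seen.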

Additional observations from a re-analysis of the deposited data

How the results depend on the processing

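Over 19 alternative settings, 121 of 132 refitted log2 fold changes of the 7 tested receptor genes kept their direction and their side of the threshold, 11 lost their call in the same direction, and none changed sign. Cd160 was called in all 19. The number of receptor genes called higher ranged from 1 to 5 over the fits that left out a column or library, being 1 where deficient replicates 2 and 4 were left out, 2 where deficient replicates 1 and 3 were, and 3 where sufficient replicate 2 was. Where 1 deficient library was left, it was assumed to vary like the sufficient ones. None was called lower in any setting; at an unadjusted p under 0.05 only the fit without sufficient replicates 1 and 3 put Klrg1 lower. Over all genes the count higher was 205, and 8 to 216 when a column or library was left out, 124 with a pseudocount of 0.1, 91 with no filter, 341 with equal totals and 1004 with the 8 columns taken as separate libraries. The count lower was 74, and 0 to 81, 8 with no filter, 30 with equal totals and 847 with 8 separate columns. A replicate block on the 8 columns gave 776 higher and 642 lower and the same 5 receptor genes; same-numbered columns correlated at 0.0275 to 0.126, so the numbers were not taken to pair the samples. Over the fits that left out a column or library, calls higher ran from 0 to 3 for adaptors, 0 to 2 for other NK cell receptors, 0 to 1 for regulators, NK cell markers and neighbours, 0 to 2 for dendritic cell markers and 0 to 9 for macrophage markers. Fewer libraries lower the number of calls by themselves. Depth limits Klrc1, Klrc2 and Klre1 most.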
